A study of Homo sapiens with 18 samples.

Results

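PATU-8902 and PATU-8988T are established human cell lines from pancreatic ductal adenocarcinoma, and their transcriptomes were compared in vehicle alone. The comparison uses 6 of the 18 libraries of the series: 3 of PATU-8902 and 3 of PATU-8988T, each kept in the solvent DMSO for 24 h in DMEM with fetal bovine serum and described as biological triplicates. The other 12 libraries are of the same lines after 6 h or 24 h of 2.5 µM DCLK1-IN-1, an inhibitor of the doublecortin-like kinase DCLK1, and serve here to ask whether the line difference was also present under the inhibitor, beside entering the filter and the estimate of the spread. Polyadenylated RNA was sequenced, with ERCC spike-in RNA added to RNA amounts normalised by cell number. Each line descends from the tumour of 1 patient, so the replicates show how well these 2 lines are told apart, and not how tumours differ. Levels are in FPKM, fragments per kilobase of transcript, normalised to the spike-ins, as the authors deposited them. The table lists 26249 genes, and the 11477 whose mean over all libraries reached 1 FPKM were kept.

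Pancreatic ductal adenocarcinoma grows from exocrine pancreas, is driven by activated growth signalling in most tumours and often loses SMAD4 function. Its cells can hold an epithelial state, with E-cadherin, tight junctions and simple keratins kept up by transcription and splicing factors such as GRHL2 and ESRP1, or a mesenchymal state, with vimentin, N-cadherin and ZEB1, a repressor of E-cadherin. Tumours are also sorted into a classical class, with gut-like genes, and a basal-like class, with squamous-type keratins and poorer differentiation. Much of the actin cytoskeleton, matrix and YAP programme of a cell varies along with these states.

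One of the 6 DMSO libraries stood apart from its group in overall level. The median FPKM over kept genes was 14.9, 12.7 and 12.5 in the 3 PATU-8902 libraries, against 6.12, 12.1 and 10.2 in the 3 PATU-8988T libraries, so PATU-8988T replicate 1 stood apart from its own group. On the log2 scale the medians averaged 3.84 ± 0.13 in PATU-8902 and 3.34 ± 0.46 in PATU-8988T (SD, n = 3 each). The difference of 0.50 had a 2-sided exact permutation p of 0.1, the smallest that 3 against 3 can give, and was 0.24 without PATU-8988T replicate 1. In the inhibitor libraries of PATU-8988T the median FPKM was 7.08, 8.89 and 11.7 at 6 h and 6.30, 6.69 and 8.01 at 24 h. DMSO replicate 1 was thus near the lower of these, while DMSO replicates 2 and 3 were among the highest of that line. RNA was set by cell number, and less RNA per cell cannot be told apart here from a shift in how the libraries were scaled. In RNA of a whole culture, fewer cells of a type and less RNA per cell cannot be told apart either. Tests were made on the values as deposited and again after the log2 median of every library had been set equal (the common median), and a gene is called higher or lower in PATU-8902 only where limma passed it in the same direction on both scales (Benjamini-Hochberg adjusted p below 0.05). Differences in log2 below are on the log2(FPKM + 1) scale, PATU-8902 minus PATU-8988T, with the common median unless stated, with the standard error (SE) of the fit. They understate the change of a gene near 0 in 1 line. The number of reads behind each value is not known.

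The lines differed over a large part of the transcriptome. As deposited, 6224 of 11477 kept genes (54.2%) passed, 4800 higher (41.8%) and 1424 lower (12.4%) in PATU-8902, so that 77.1% of the calls were higher. With a common median 8284 genes passed (72.2%), 3947 higher (34.4%) and 4337 lower (37.8%), and 47.6% of the calls were higher. The median difference over all kept genes was 0.45 as deposited and -0.05 with the common median, and the scale alone moves the balance of directions. On both scales 3922 genes (34.2%) were higher and 1424 (12.4%) were lower, and these shares are the background for every list below. Without PATU-8988T replicate 1 the same rule gave 3576 higher and 2157 lower. Profiles correlated at 0.967 to 0.973 across kept genes among PATU-8902 libraries and at 0.957 to 0.974 among PATU-8988T libraries, against 0.761 to 0.785 between lines. A gene kept because 1 line alone expresses it had to differ, so the counts of each list are a description set beside that background.

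DCLK1, the kinase that the inhibitor was made against, was expressed in both lines. It stood at 25.6, 24.1 and 21.5 FPKM in PATU-8902, against 19.9, 33.9 and 28.4 FPKM in PATU-8988T, and the libraries overlapped. Its difference did not pass as deposited (-0.17, limma adjusted p = 0.576), while with the common median it was lower in PATU-8902 by the test (-0.67 ± 0.06, adjusted p = 9.24e-08). DCLK1 also marks tuft cells, a chemosensory epithelial type; of 14 tuft cell genes 2 were kept, the other being PLCB2, a phospholipase, at 4.69 FPKM in PATU-8902 and 0.152 FPKM in PATU-8988T on average.

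Many of the largest differences were of genes that 1 line expressed strongly and the other hardly at all. The gene furthest apart was EMP1, which encodes a small membrane protein of epithelial cells: it had 2608, 1963 and 2009.8 FPKM in PATU-8902, against 0.308, 0.632 and 0.761 FPKM in PATU-8988T. UCA1, a long non-coding RNA first described in bladder carcinoma, had 769.98, 695 and 617 FPKM in PATU-8902, against 0.0747, 0.149 and 0.129 FPKM in PATU-8988T. CALB1, the calcium buffer calbindin, followed the same pattern with 838, 835 and 738 FPKM in PATU-8902, against 0.0737, 0.0976 and 0.157 FPKM in PATU-8988T. The PATU-8902 libraries were all high and the PATU-8988T libraries all below 1 FPKM, with differences of 9.95 ± 0.13 for EMP1 and 8.77 ± 0.17 for UCA1 (SE) and adjusted p of 6.31e-18 and 3.42e-16 in limma.

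The other genes among the 15 with the largest difference in that direction were KRT19 and KRT7, keratins of ductal epithelium, S100A4, a calcium-binding protein, KLK6, a secreted kallikrein protease, CRIP1, a LIM-domain protein, MFAP5, a protein of matrix microfibrils, SLCO1B3, an organic anion transporter of liver, MAL2, which carries proteins to the apical surface, SNCG, gamma-synuclein, FGFBP1, a carrier that frees fibroblast growth factors from matrix, ANO1, a calcium-activated chloride channel, and LOC100505817, an uncharacterised locus. Except for S100A4, at 1.69, 2.97 and 1.55 FPKM, each of these was below 0.5 FPKM in all 3 PATU-8988T libraries. S100A4 itself reached 1397, 783 and 905 FPKM in PATU-8902.

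In the other direction, PLOD2, a lysyl hydroxylase that readies collagen for cross-linking, had 0.130, 0.187 and 0.122 FPKM in PATU-8902, against 195, 270.3 and 185 FPKM in PATU-8988T. PSAT1, the second enzyme of serine synthesis, had 0.130, 0.206 and 0.123 FPKM in PATU-8902, against 144, 242 and 207 FPKM in PATU-8988T. TUBB6, a beta-tubulin isotype, had 1.80, 1.34 and 1.33 FPKM in PATU-8902, against 142, 359 and 329 FPKM in PATU-8988T. In each case the lowest PATU-8988T library lay far above every PATU-8902 library. The differences were -8.05 ± 0.17 for PLOD2, -7.90 ± 0.13 for PSAT1 and -7.20 ± 0.12 for TUBB6, with limma adjusted p of 1.29e-15, 9.87e-17 and 7.08e-17. The rest of the 15 were AKR1B1 (aldose reductase), DMKN (dermokine, a secreted protein of skin), FSTL1 (a secreted glycoprotein), DYSF (dysferlin, for membrane repair), FADS1 (a fatty acid desaturase), RBP7 (a retinol-binding protein), FHL1 (a LIM-domain protein of muscle), GGH (a folate hydrolase), LOXL2 (a lysyl oxidase), ANTXR1 (an anthrax toxin receptor), MCAM (the adhesion molecule CD146) and LIMCH1 (an actomyosin regulator). Their PATU-8902 means ran from 0.128 FPKM for DMKN to 0.517 FPKM for LOXL2, against 58.1 FPKM for LIMCH1 to 128 FPKM for AKR1B1 in PATU-8988T.

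**Figure D1:**
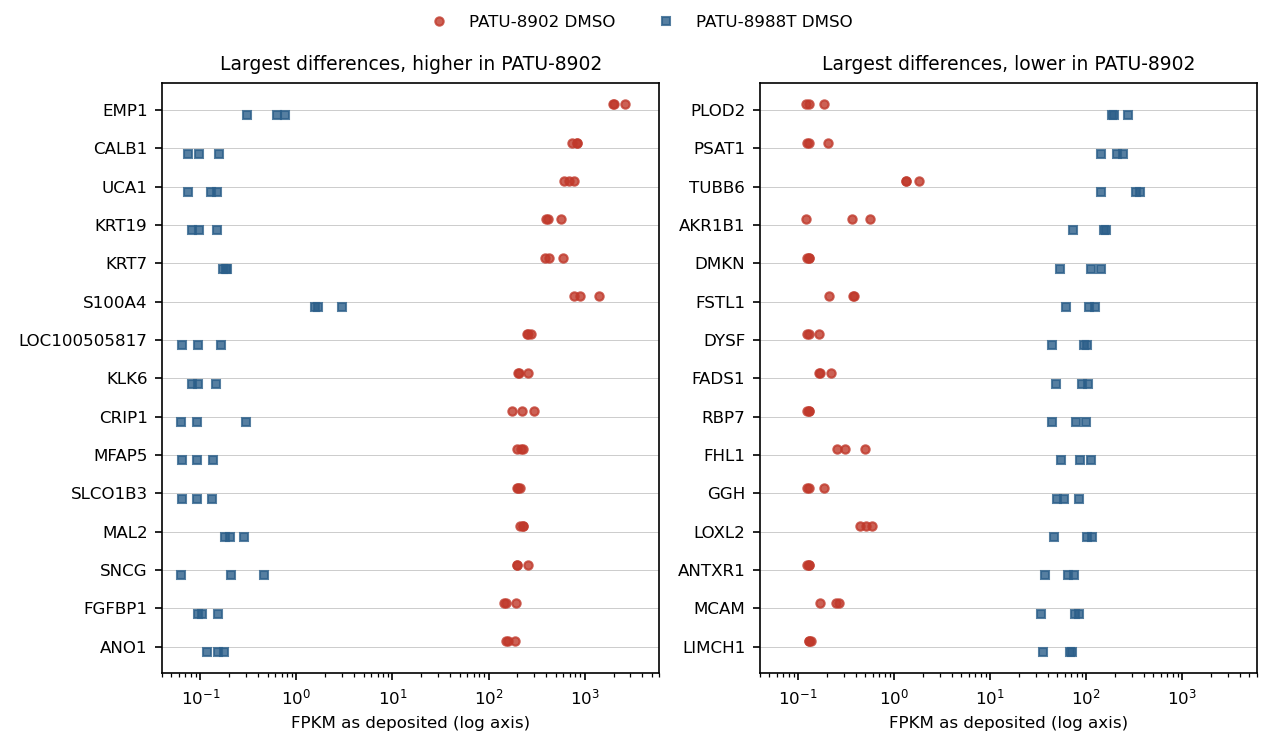
FPKM as deposited (log axis) of the 15 genes with the largest difference in each direction, for the 3 PATU-8902 libraries (red circles) and the 3 PATU-8988T libraries (blue squares) in DMSO; each point is 1 library. In every panel and gene the lines do not overlap, and EMP1 spans the widest range.

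Differences of this kind were also counted with a fixed rule. In DMSO 122 genes (1.06% of those kept) had at least 10 FPKM in each PATU-8902 library and under 0.5 FPKM in each PATU-8988T library, and 58 genes (0.505%) showed the opposite. Of these, 114 and 52 met the same limits in all 18 libraries, inhibitor libraries included. The 8 and 6 that did not were close to a limit in some library: LOXL1, a lysyl oxidase of elastic fibres, for instance, went no lower than 9.10 FPKM in PATU-8902, and MYL9, a myosin light chain, no higher than 0.534 FPKM there.

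Among genes of at least 10 FPKM in all 6 libraries, for which neither line is near 0, the 5 largest differences above PATU-8988T were those of EPCAM, CAV1, ITGA6, ADIPOR2 and ERGIC2. EPCAM, the epithelial cell adhesion molecule, had 807, 697 and 693 FPKM in PATU-8902, against 11.1, 16.7 and 12.4 FPKM in PATU-8988T, a difference of 5.18 ± 0.10 (limma adjusted p = 3.01e-16). CAV1, caveolin-1 of membrane caveolae, had 1230.3, 943 and 954 FPKM in PATU-8902, against 19.1, 33.6 and 26.1 FPKM in PATU-8988T. ITGA6, the laminin receptor subunit alpha-6, had 657, 649 and 598 FPKM in PATU-8902, against 43.7, 77.4 and 57.01 FPKM in PATU-8988T. ADIPOR2, an adiponectin receptor, and ERGIC2, a protein of the secretory pathway, both lie on chromosome 12 and were higher by 2.93 and 2.89. Among the largest the other way were CYR61, FTL, PPME1 and TPM1. FTL, the ferritin light chain, had 209, 138 and 136 FPKM in PATU-8902, against 799, 2392 and 2224 FPKM in PATU-8988T; ferritin has many processed pseudogenes that could share its reads. PPME1, a phosphatase methylesterase, differed by -3.72 ± 0.12 and TPM1, a tropomyosin, by -3.25 ± 0.10.

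The 2 lines were then set against markers of pancreatic cell types. All 8 listed markers of ductal and simple epithelium were kept and 8 were higher in PATU-8902. KRT8 and KRT18, the keratin pair of simple epithelia, were abundant in both lines: KRT8 had 1305, 846 and 934 FPKM in PATU-8902, against 168, 442 and 416 FPKM in PATU-8988T, and KRT18 had 1450.5, 955 and 1074 FPKM in PATU-8902, against 201, 514 and 499 FPKM in PATU-8988T. KRT19 and KRT7 were near 0 in PATU-8988T, with 564, 394 and 418 FPKM in PATU-8902, against 0.0819, 0.0963 and 0.150 FPKM in PATU-8988T for KRT19 and 597, 384 and 430.4 FPKM in PATU-8902, against 0.183, 0.171 and 0.191 FPKM in PATU-8988T for KRT7. In PATU-8988T the ductal markers KRT8, KRT18, EPCAM and SOX9 were present, and KRT7, KRT19, CDH1 and MUC1 averaged below 1 FPKM. SOX9, a transcription factor of pancreatic ducts, stood at 30.9, 29.9 and 28.4 FPKM in PATU-8902, against 3.74, 6.18 and 7.10 FPKM in PATU-8988T. Markers of acinar (7), endocrine (6), fibroblast (8) and endothelial (6) cells had no kept gene, and of 8 immune markers only CD68, a lysosomal protein not limited to immune cells, was kept. The summed level of the fibroblast markers was 1.30 to 1.48 FPKM in PATU-8902 and 1.09 to 1.83 FPKM in PATU-8988T, and that of the endothelial markers 0.879 to 1.07 FPKM in PATU-8902 and 0.673 to 0.954 FPKM in PATU-8988T.

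Epithelial junction genes and their regulators formed a one-sided list: 35 of 36 genes were kept, 33 were higher in PATU-8902 and 0 lower, against 34.2% and 12.4% of all kept genes, and their median difference was 2.74. CDH1, E-cadherin of adherens junctions, had 105, 90.8 and 87.3 FPKM in PATU-8902, against 0.0783, 0.128 and 0.181 FPKM in PATU-8988T. The claudins of the tight junction were in the same order, with CLDN7 at 61.05, 40.1 and 45.4 FPKM in PATU-8902, against 0.0642, 0.0922 and 0.146 FPKM in PATU-8988T. CLDN4 averaged 28.8 FPKM in PATU-8902 and 0.134 FPKM in PATU-8988T, while JUP, plakoglobin of desmosomes and adherens junctions, averaged 94.2 FPKM in PATU-8902 and 2.08 FPKM in PATU-8988T. Surface proteins on the list included ST14, the serine protease matriptase, at 93.2 FPKM in PATU-8902 and 0.0992 FPKM in PATU-8988T, with its inhibitor SPINT1 at 41.3 FPKM in PATU-8902 and 0.286 FPKM in PATU-8988T. The 2 kept genes that were not called were OCLN, occludin, at 7.30 FPKM in PATU-8902 and 6.75 FPKM in PATU-8988T, and DSP, the desmosomal plaque protein desmoplakin, at 55.7 FPKM in PATU-8902 and 46.1 FPKM in PATU-8988T.

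The regulators on that list were as far apart as the junction genes. GRHL2, a grainyhead factor that activates junction genes, had 47.5, 38.3 and 40.04 FPKM in PATU-8902, against 0.0646, 0.0917 and 0.0910 FPKM in PATU-8988T. ESRP1, which directs epithelial splicing, had 169.6, 162 and 150.4 FPKM in PATU-8902, against 0.130, 0.396 and 0.241 FPKM in PATU-8988T, and its relative ESRP2 averaged 13.1 FPKM in PATU-8902 and 0.118 FPKM in PATU-8988T. EHF, an ETS factor of epithelia, had 64.6, 61.4 and 58.1 FPKM in PATU-8902, against 0.0644, 0.0925 and 0.0914 FPKM in PATU-8988T. In each of these genes all PATU-8988T libraries were below 1 FPKM. OVOL1, OVOL2 and ELF3, further epithelial transcription factors, were higher in PATU-8902 at lower levels, and OVOL2 averaged 12.9 FPKM in PATU-8902 and 0.488 FPKM in PATU-8988T. KLF5, a Krüppel-like factor, remained detectable in both lines, with 60.2, 60.5 and 52.2 FPKM in PATU-8902, against 3.16, 4.59 and 4.08 FPKM in PATU-8988T.

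The promoter of RAB25, a small GTPase of apical recycling, is shown because ZEB1 and SNAI2 are known to bind the E-box CAGGTG in promoters of epithelial genes. RAB25 had 72.3, 52.6 and 51.6 FPKM in PATU-8902, against 0.0640, 0.0925 and 0.169 FPKM in PATU-8988T. Its promoter runs from 250 bases before to 50 bases after the start of the gene (chr1:156060910-156061209, plus strand, from RefSeq on GRCh38.p14), and capitals mark the 2 matches to CAGGTG or, on the other strand, CACCTG, at positions -41 and 38 from the start.
RAB25: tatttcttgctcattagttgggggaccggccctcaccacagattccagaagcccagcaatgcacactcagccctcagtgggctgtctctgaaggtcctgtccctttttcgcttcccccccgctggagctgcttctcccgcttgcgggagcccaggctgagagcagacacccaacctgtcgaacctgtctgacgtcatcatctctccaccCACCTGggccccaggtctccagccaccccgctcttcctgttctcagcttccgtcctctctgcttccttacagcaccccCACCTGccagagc
Of the 36 listed epithelial genes 18 had a promoter in the table, and 8 of these (44.4%) held the 6 letters on either strand. The same letters stood in 20.6% of all 27305 promoters and in 18.1% of the promoters of kept genes. Among genes called higher, CRB3 had 5 matches, AP1M2 3, BSPRY 2 and CLDN3 and ELF3 1 each, beside the 2 of RAB25. The rest of those called higher, CLDN4, CLDN7, TJP3, JUP, GRHL1, EHF, MARVELD2, SPINT1, KLF5 and LSR, had 0. DSP and OCLN, which were not called, had 2 and 1. Whether matches go with the line difference was not tested. A match is a description of the letters in this window and says nothing of binding. No matches in the promoters printed here or below overlap each other.

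Mesenchymal genes did not all go the other way. Of 25 listed genes 10 were kept, 6 were lower in PATU-8902 and 4 were higher, with a median of -2.30 over the kept genes. Over all 25, kept or not, it was -0.49, as over all 26249 genes, and 13 were under 1 FPKM in all 6 libraries. VIM, vimentin, the intermediate filament of mesenchymal cells, had 6.06, 5.15 and 5.76 FPKM in PATU-8902, against 131, 271 and 233 FPKM in PATU-8988T. CDH2, N-cadherin, averaged 2.36 FPKM in PATU-8902 and 18.9 FPKM in PATU-8988T, and FGFR1, a fibroblast growth factor receptor, 0.321 FPKM in PATU-8902 and 23.9 FPKM in PATU-8988T. ZEB1 had 0.427, 0.715 and 0.649 FPKM in PATU-8902, against 5.42, 9.86 and 7.23 FPKM in PATU-8988T, with every PATU-8902 library below every PATU-8988T library. AXL, a receptor tyrosine kinase, was expressed in both lines and lower in PATU-8902, at 56.9, 48.4 and 47.7 FPKM in PATU-8902, against 107, 193 and 185 FPKM in PATU-8988T; FN1, fibronectin, was low in both, at 0.339 FPKM in PATU-8902 and 4.56 FPKM in PATU-8988T.

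The 4 mesenchymal genes that were higher in PATU-8902 were S100A4, CAV1, TGFBI and SNAI2. TGFBI, a matrix protein induced by TGF-beta, had 419, 275 and 294 FPKM in PATU-8902, against 3.16, 8.28 and 6.56 FPKM in PATU-8988T. SNAI2, the transcription factor Slug, had 9.22, 11.1 and 9.82 FPKM in PATU-8902, against 0.301, 0.375 and 0.776 FPKM in PATU-8988T. ZEB1 and SNAI2, both known repressors of E-cadherin, were thus called in opposite directions. SNAI2 differed by 2.40 ± 0.20 and ZEB1 by -2.89 ± 0.17 (limma adjusted p = 1.28e-08 and 2.00e-10).

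**Figure D2:**
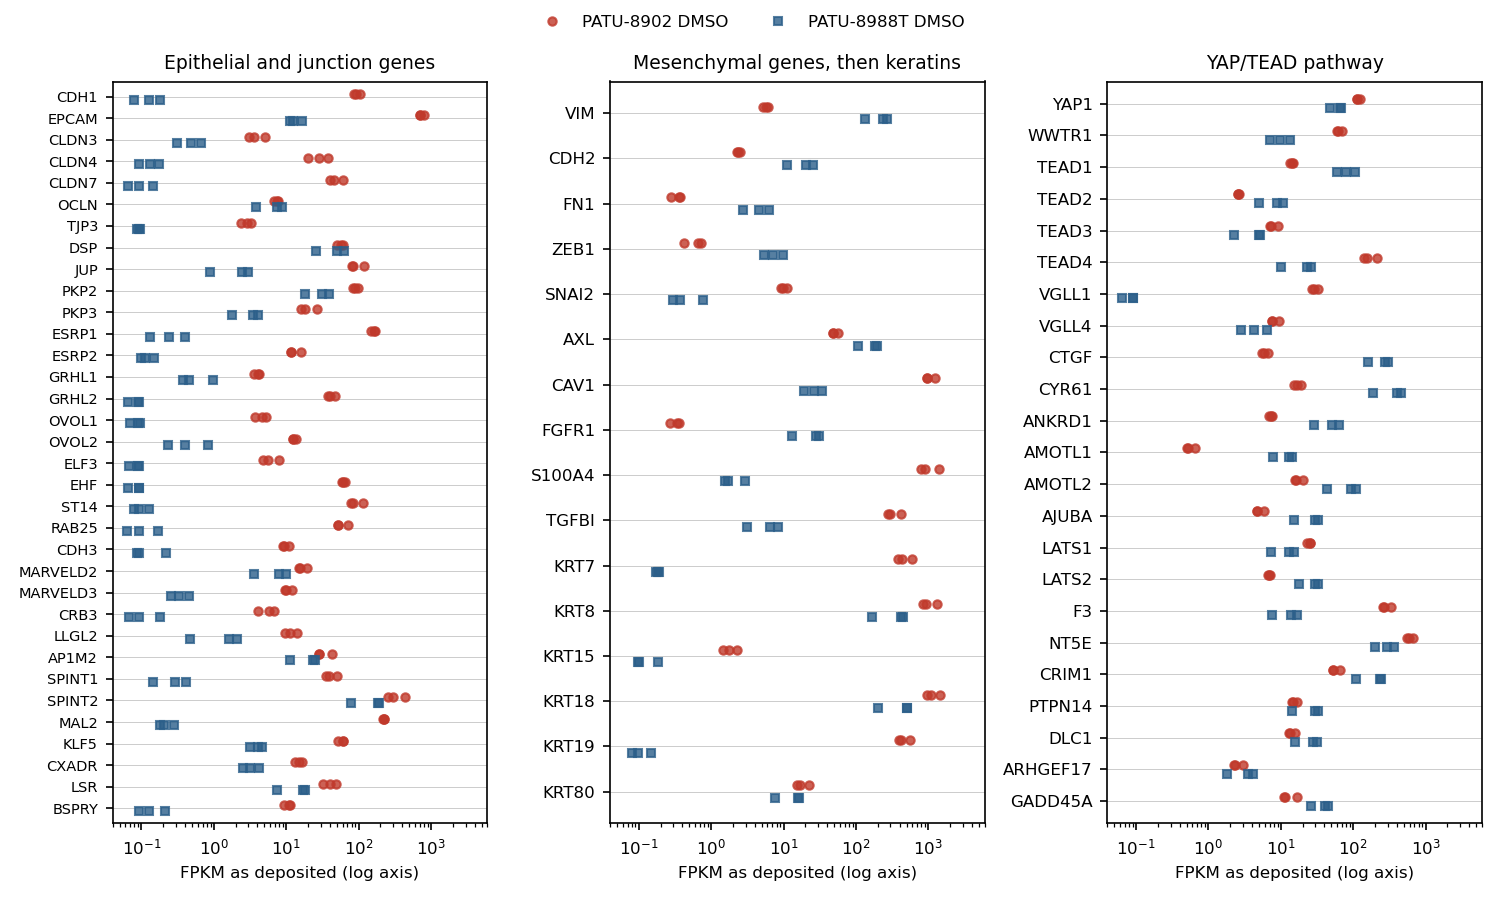
FPKM as deposited (log axis) of kept epithelial and junction genes (left), mesenchymal genes and keratins (middle) and YAP/TEAD genes (right) reported here, with 1 point for each DMSO library of PATU-8902 (red circles) and PATU-8988T (blue squares). Most epithelial genes sit below 1 FPKM in PATU-8988T, VIM and CTGF are high in PATU-8988T, and CAV1, S100A4 and F3 are high in PATU-8902.

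Most keratins were below the limit for kept genes: of 19 keratins 6 were kept, 5 were higher and 0 lower in PATU-8902. Of 24 basal-like subtype genes, 13 were kept, and 11 were higher in PATU-8902 and 0 lower (median of the kept genes 4.06). Over all 24, kept or not, the median was -0.05, and 11 were under 1 FPKM in all 6 libraries. TNS4, a focal adhesion tensin, averaged 44.1 FPKM in PATU-8902 and 0.106 FPKM in PATU-8988T, SCEL, the cornified envelope precursor sciellin, 71.5 FPKM in PATU-8902 and 0.0948 FPKM in PATU-8988T, and VGLL1, a TEAD cofactor, 29.6 FPKM in PATU-8902 and 0.0822 FPKM in PATU-8988T. The classical genes were nearly absent from both lines. Of 25 only TSPAN1, a tetraspanin, was kept, at 51.1, 29.1 and 34.1 FPKM in PATU-8902, against 0.602, 1.31 and 0.913 FPKM in PATU-8988T. Of 14 mucins MUC1 alone was kept, at 96.5, 78.2 and 80.8 FPKM in PATU-8902, against 0.585, 0.823 and 1.09 FPKM in PATU-8988T.

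Of 31 lineage transcription factors of pancreas and gut 12 were kept, 5 higher (41.7%) and 2 lower (16.7%). These shares are near the 34.2% and 12.4% of all kept genes. FOXA2, a pioneer factor of endoderm, had 5.80, 5.25 and 5.42 FPKM in PATU-8902, against 0.0678, 0.0900 and 0.0928 FPKM in PATU-8988T. GATA6, which marks classical tumours, averaged 4.35 FPKM in PATU-8902 and 0.312 FPKM in PATU-8988T, and GATA4 went the other way with 1.05 FPKM in PATU-8902 and 5.42 FPKM in PATU-8988T. Levels of all 3 are low. Liver-type secreted proteins and complement included SERPINA1, alpha-1-antitrypsin, at 31.2, 28.8 and 27.5 FPKM in PATU-8902, against 0.0721, 0.0914 and 0.136 FPKM in PATU-8988T, and LCN2, the siderophore-binding lipocalin, at 12.5 FPKM in PATU-8902 and 0.111 FPKM in PATU-8988T; 7 of 31 were kept, 4 higher and 1 lower. Among S100 calcium-binding proteins 8 of 11 kept genes were higher and 0 lower, with S100A14 at 41.6 FPKM in PATU-8902 and 0.103 FPKM in PATU-8988T and S100A6 at 708 FPKM in PATU-8902 and 195 FPKM in PATU-8988T.

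YAP and TEAD genes went in both directions. YAP1 and WWTR1 encode the coactivators YAP and TAZ, TEADs carry them on DNA, and CTGF, CYR61 and ANKRD1 are the targets most used as readouts. Of 23 kept genes 9 were higher and 12 lower in PATU-8902 (median -1.25). The coactivators were higher: YAP1 had 126, 111 and 113 FPKM in PATU-8902, against 47.7, 66.8 and 64.99 FPKM in PATU-8988T, and WWTR1 had 70.4, 61.5 and 60.03 FPKM in PATU-8902, against 7.17, 13.4 and 9.75 FPKM in PATU-8988T. TEAD4 averaged 168 FPKM in PATU-8902 and 19.7 FPKM in PATU-8988T and TEAD1 14.2 FPKM in PATU-8902 and 81.3 FPKM in PATU-8988T, in opposite directions.

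The 3 readout targets were lower in PATU-8902. CTGF, connective tissue growth factor, had 6.72, 5.79 and 5.49 FPKM in PATU-8902, against 161, 304 and 277 FPKM in PATU-8988T. CYR61, a matrix-associated relative of CTGF, had 18.96, 15.1 and 16.5 FPKM in PATU-8902, against 185, 457 and 399 FPKM in PATU-8988T. ANKRD1, a muscle ankyrin repeat protein, had 7.20, 7.46 and 6.79 FPKM in PATU-8902, against 28.4, 64.2 and 51.6 FPKM in PATU-8988T. No PATU-8902 library reached the lowest PATU-8988T library in any of them, and the differences were -5.60 ± 0.07, -4.69 ± 0.11 and -3.02 ± 0.08 (limma adjusted p = 6.31e-18, 2.00e-15 and 1.70e-14). AMOTL2 and LATS2, feedback inhibitors that YAP itself induces, were lower too, at 17.3 FPKM in PATU-8902 and 82.2 FPKM in PATU-8988T for AMOTL2 and 6.87 FPKM in PATU-8902 and 26.7 FPKM in PATU-8988T for LATS2. F3, tissue factor, stood against them: it had 327, 263 and 258 FPKM in PATU-8902, against 7.58, 16.7 and 13.7 FPKM in PATU-8988T.

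The promoters of CTGF and ANKRD1 are shown for the TEAD motif GGAATG, which stands in capitals. Both are from RefSeq on GRCh38.p14 (CTGF, listed there as CCN2, chr6:131951323-131951622, minus strand; ANKRD1, chr10:90921038-90921337, minus strand) and hold 3 and 2 matches, those of CTGF at -169, -104 and -95 from the start.
CTGF: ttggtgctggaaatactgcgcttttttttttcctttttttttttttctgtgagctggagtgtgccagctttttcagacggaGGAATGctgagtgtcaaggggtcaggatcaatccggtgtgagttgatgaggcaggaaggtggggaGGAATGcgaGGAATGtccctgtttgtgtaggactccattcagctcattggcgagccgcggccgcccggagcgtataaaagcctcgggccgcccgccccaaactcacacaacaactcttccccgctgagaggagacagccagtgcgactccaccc
ANKRD1: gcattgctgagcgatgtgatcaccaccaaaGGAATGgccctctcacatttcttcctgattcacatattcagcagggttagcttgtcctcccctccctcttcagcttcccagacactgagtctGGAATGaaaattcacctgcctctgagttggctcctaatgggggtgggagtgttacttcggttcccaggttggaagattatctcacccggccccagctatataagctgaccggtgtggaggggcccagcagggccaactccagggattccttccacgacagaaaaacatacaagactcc
Of 17 promoters found for the YAP/TEAD list 6 (35.3%) held the 6 letters on either strand, against 14% of all promoters and 10.6% of those of kept genes. Beside CTGF and ANKRD1, LATS2, called lower, and YAP1 and VGLL1, called higher, had 1 match each, as did PTPN14. AMOTL2, called lower, and WWTR1 and F3, called higher, were among those with 0. As for RAB25, this describes letters and not binding, and whether matches go with the line difference was not tested.

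Genes of the actin cytoskeleton under SRF and its MRTF coactivators were more often lower: 10 of 23 kept genes were lower and 4 higher (median -1.01). TPM2, a tropomyosin, had 7.45, 5.87 and 3.78 FPKM in PATU-8902, against 105, 279.9 and 249 FPKM in PATU-8988T. FLNC, filamin C of muscle, had 0.129, 0.132 and 0.136 FPKM in PATU-8902, against 27.1, 64.2 and 60.9 FPKM in PATU-8988T. MYL9 averaged 0.315 FPKM in PATU-8902 and 42.2 FPKM in PATU-8988T, TAGLN, transgelin of smooth muscle, 2.10 FPKM in PATU-8902 and 59.2 FPKM in PATU-8988T, and CALD1, caldesmon, 2.01 FPKM in PATU-8902 and 66.6 FPKM in PATU-8988T. TPM4, the tropomyosin of non-muscle cells, was higher, at 573, 504 and 458 FPKM in PATU-8902, against 92.8, 206 and 177 FPKM in PATU-8988T. ACTB, beta-actin, was not called, at 2525 FPKM in PATU-8902 and 3349 FPKM in PATU-8988T. Among tubulins 4 of 11 kept isotypes were higher and 3 lower. TUBA4A averaged 38.1 FPKM in PATU-8902 and 2.64 FPKM in PATU-8988T; since tubulin genes are near-identical, reads could be split among them.

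Of 45 matrix genes 19 were kept, 10 higher and 7 lower. LAMA3 and LAMB3, chains of the laminin that anchors epithelium, were higher in PATU-8902: LAMA3 had 229, 197 and 189.8 FPKM in PATU-8902, against 3.53, 6.76 and 6.41 FPKM in PATU-8988T, and LAMB3 averaged 84.7 FPKM in PATU-8902 and 11.3 FPKM in PATU-8988T. ITGB4, the partner of ITGA6 in the receptor for that laminin, had 144, 97.7 and 109 FPKM in PATU-8902, against 2.60, 6.43 and 6.63 FPKM in PATU-8988T. COL12A1, a fibril-associated collagen, was lower, at 0.692, 0.720 and 0.799 FPKM in PATU-8902, against 20.2, 45.3 and 33.3 FPKM in PATU-8988T, and so was LAMB2, a laminin beta chain, at 2.71 FPKM in PATU-8902 and 17.1 FPKM in PATU-8988T. Among integrins 5 of 10 kept subunits were higher and 1 lower, the lower one being ITGA5, of the fibronectin receptor, at 1.42 FPKM in PATU-8902 and 5.36 FPKM in PATU-8988T. Of 14 kept proteases and inhibitors 9 were higher and 2 lower. MMP14, the membrane-anchored matrix metalloproteinase, had 56.7, 47.7 and 45.2 FPKM in PATU-8902, against 0.0710, 0.123 and 0.131 FPKM in PATU-8988T, and KLK10, a kallikrein, averaged 35.5 FPKM in PATU-8902 and 0.0823 FPKM in PATU-8988T. PLAT, tissue plasminogen activator, was lower, at 2.16 FPKM in PATU-8902 and 13.4 FPKM in PATU-8988T.

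Among drivers of pancreatic cancer and cell-cycle controllers 36 of 37 were kept, 16 were higher (44.4%) and 5 lower (13.9%) in PATU-8902. Of all kept genes 34.2% were higher and 12.4% lower. SMAD4, the common mediator of TGF-beta signalling, had 5.63, 5.72 and 6.75 FPKM in PATU-8902, against 0.0676, 0.0900 and 0.0926 FPKM in PATU-8988T, and MAP2K4, a stress-activated kinase kinase, had 16.4, 17.8 and 16.2 FPKM in PATU-8902, against 0.0655, 0.0903 and 0.0909 FPKM in PATU-8988T. In PATU-8988T both were under 0.5 FPKM in every library. Variants and copy number were not measured, so a low level does not say whether the gene is intact.

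The same list holds subunits of the SWI/SNF chromatin remodeller, of which 4 are given here. SMARCA4, the ATPase BRG1, had 49.1, 41.1 and 41.7 FPKM in PATU-8902, against 0.903, 1.96 and 1.96 FPKM in PATU-8988T. SMARCA2, the alternative ATPase BRM, had 1.89, 2.24 and 2.56 FPKM in PATU-8902, against 10.7, 20.5 and 17.00 FPKM in PATU-8988T. ARID1A, the DNA-binding subunit, had 3.63, 3.11 and 3.11 FPKM in PATU-8902, against 10.5, 26.6 and 23.2 FPKM in PATU-8988T, and PBRM1, the bromodomain subunit of the PBAF form, averaged 3.48 FPKM in PATU-8902 and 27.97 FPKM in PATU-8988T. PATU-8902 was thus high in SMARCA4 and low in SMARCA2, ARID1A and PBRM1, and PATU-8988T showed the reverse order. CDKN1A, the cell-cycle inhibitor p21, was lower in PATU-8902 at 1.14 FPKM in PATU-8902 and 9.77 FPKM in PATU-8988T, while CDKN1B, p27, was higher at 62.04 FPKM in PATU-8902 and 12.6 FPKM in PATU-8988T. CDK6 and CCND1, which drive entry into S phase, were higher, at 47.4 FPKM in PATU-8902 and 9.71 FPKM in PATU-8988T for CDK6 and 176 FPKM in PATU-8902 and 44.3 FPKM in PATU-8988T for CCND1.

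Genes called higher in PATU-8902 lay close together on chromosome 12. Chromosome numbers and gene order are from RefSeq on GRCh38.p14, while the files use hg19, so no coordinates are given. When the median difference was taken over every 11 neighbouring kept genes, small RNAs left out, the 6 separate runs with the highest medians all lay on chromosome 12, with medians of 1.94 to 2.63. The stretch from KDM5A to CAPRIN2, named after these values were seen, held 147 kept genes, of which 134 (91.2%) were higher and 3 (2.04%) lower, with a median of 1.79. Of the other 471 kept genes on chromosome 12, small RNAs left out, 192 (40.8%) were higher and 49 (10.4%) lower, with a median of 0.06. The stretch holds EMP1, MFAP5, SLCO1B3, ADIPOR2, ERGIC2 and TEAD4, and GAPDH, the glycolytic enzyme often used for normalising. GAPDH had 6674, 4016 and 4382 FPKM in PATU-8902, against 877, 2502 and 2352 FPKM in PATU-8988T, and its call as deposited was lost in a fit of the 6 DMSO libraries alone (limma adjusted p = 0.0643). WNT5B, a Wnt ligand in the same stretch, went the other way at 0.160, 0.241 and 0.288 FPKM in PATU-8902, against 16.1, 35.5 and 32.8 FPKM in PATU-8988T. The stretch's median was 1.77 after 6 h and 1.71 after 24 h of inhibitor. Copy number was not measured.

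Runs of lower genes lay on chromosomes 19 and X. Between CAPNS1 and ZNF570 on chromosome 19, 28 of 29 kept genes (96.6%) were lower in PATU-8902 and 0 higher, with a median of -2.35. Between HNRNPL and PAF1, 9 of 11 (81.8%) were lower, with a median of -2.55. Of the kept genes of chromosome 19 outside the first run 20% were lower, and outside the second 22.1%, with medians of -0.41 and -0.42. On chromosome X, 9 of the 11 kept genes from ARMCX3 to TCEAL4 (81.8%) were lower, with a median of -2.98. Of the other 328 kept genes there 14.9% were lower, with a median of 0.03. Small RNAs were left out of these counts. Many of the genes in the first run encode KRAB-type zinc finger proteins, a family of DNA-binding repressors that sits in clusters on chromosome 19. Of 172 kept genes on that chromosome whose symbol begins with ZNF 65 were lower and 12 higher, and 40 were below 0.5 FPKM in all 3 PATU-8902 libraries while 0 were so in PATU-8988T. Among 208 kept genes of that kind on other chromosomes 32 were lower and 37 higher, and 13 were below 0.5 FPKM in PATU-8902 and 1 in PATU-8988T. The other 591 kept genes of chromosome 19 had 107 lower and 116 higher. Their median was -0.42, against -0.62 for its 172 ZNF genes, so chromosome 19 leaned low outside this family also. Of all kept genes 12.4% were lower and 34.2% higher. Zinc finger genes have similar sequences, so reads may be shared among them. Such a gene below 0.5 FPKM in 1 line was kept mainly through its level in the other line. The share of all kept genes below 0.5 FPKM is not given, so these counts are a description.

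**Figure D3:**
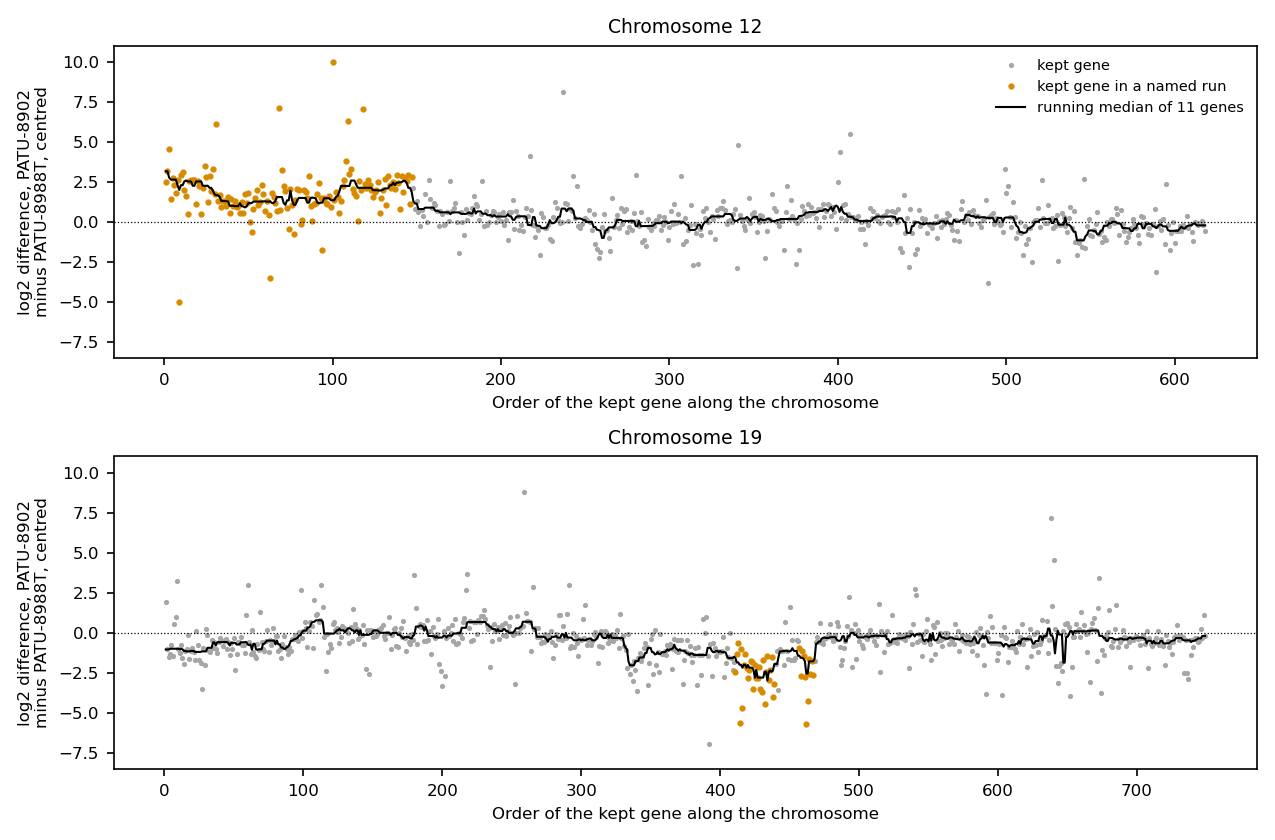
Log2 difference (PATU-8902 minus PATU-8988T, common median) of each kept gene, small RNAs left out, in its order along chromosomes 12 and 19, with a running median of 11 genes (black line) and the genes of the named runs in orange. The first 147 genes of chromosome 12 lie mostly above 0 with a median of 1.79, and the orange runs on chromosome 19 lie below 0.

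Receptors and ligands of growth signalling differed in both directions. Of 18 kept receptor tyrosine kinases 11 were higher and 4 lower. ERBB3, the kinase-poor partner of ERBB2, had 23.6, 19.2 and 17.99 FPKM in PATU-8902, against 0.723, 1.09 and 1.13 FPKM in PATU-8988T. MET, the receptor of hepatocyte growth factor, averaged 150.3 FPKM in PATU-8902 and 49.7 FPKM in PATU-8988T, and DDR1, a collagen receptor, 36.98 FPKM in PATU-8902 and 5.53 FPKM in PATU-8988T. EGFR was not called, at 62.1 FPKM in PATU-8902 and 66.03 FPKM in PATU-8988T. TGFA and HBEGF, ligands of EGFR, were higher in PATU-8902: TGFA had 112, 89.8 and 88.4 FPKM in PATU-8902, against 5.12, 9.95 and 7.44 FPKM in PATU-8988T, and HBEGF averaged 55.2 FPKM in PATU-8902 and 10.9 FPKM in PATU-8988T. NRG1, a ligand of ERBB3, was present in the line with little ERBB3: it had 0.127, 0.132 and 0.124 FPKM in PATU-8902, against 7.77, 10.95 and 11.6 FPKM in PATU-8988T. In all, 10 of 16 kept ligands were higher and 1 lower.

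In the TGF-beta, activin and BMP list 15 of 28 kept genes were higher and 3 lower. The ID genes, immediate targets of BMP signalling, were among the widest: ID1 had 215, 146 and 159 FPKM in PATU-8902, against 0.529, 0.762 and 1.01 FPKM in PATU-8988T, and ID3 averaged 28.4 FPKM in PATU-8902 and 0.124 FPKM in PATU-8988T. BMP4, a ligand, averaged 6.46 FPKM in PATU-8902 and 0.176 FPKM in PATU-8988T, and BMP7 0.124 FPKM in PATU-8902 and 3.47 FPKM in PATU-8988T, in opposite directions. Of 25 kept Wnt, Notch and Hedgehog genes 14 were higher and 4 lower. DKK1, a secreted Wnt antagonist, had 148, 126 and 128 FPKM in PATU-8902, against 1.12, 2.12 and 1.95 FPKM in PATU-8988T. JAG1, a Notch ligand, averaged 14.7 FPKM in PATU-8902 and 0.424 FPKM in PATU-8988T and HES1, a Notch target, 30.4 FPKM in PATU-8902 and 0.459 FPKM in PATU-8988T. SMO, the signal transducer of Hedgehog, was lower, at 0.125, 0.131 and 0.122 FPKM in PATU-8902, against 4.05, 8.23 and 7.08 FPKM in PATU-8988T.

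Most kept interferon-stimulated genes were higher in PATU-8902. Of 44 listed genes 36 were kept, 28 were higher and 3 lower, with a median of 1.30. IFIT1, IFIT2 and IFIT3 encode related antiviral proteins, and IFIT1 had 38.1, 35.2 and 33.6 FPKM in PATU-8902, against 0.240, 0.368 and 0.408 FPKM in PATU-8988T. IFIT2 had 79.4, 68.3 and 65.00 FPKM in PATU-8902, against 0.622, 0.925 and 0.902 FPKM in PATU-8988T, and IFIT3 had 69.8, 57.3 and 56.2 FPKM in PATU-8902, against 0.381, 0.476 and 0.778 FPKM in PATU-8988T. OAS1, which senses double-stranded RNA, averaged 14.1 FPKM in PATU-8902 and 0.0885 FPKM in PATU-8988T, and XAF1 19.2 FPKM in PATU-8902 and 0.0846 FPKM in PATU-8988T. Of the receptors and factors that drive these genes, IFIH1 and IRF9 were closer together between the lines, and both were called higher. IFIH1, the RNA sensor MDA5, averaged 19.2 FPKM in PATU-8902 and 3.29 FPKM in PATU-8988T. IRF9 averaged 8.66 FPKM in PATU-8902 and 0.872 FPKM in PATU-8988T. STAT2, on the same list, differed by -0.54 and was not called, so these factors were not all higher. The lower genes were IFITM2, HERC5 and UBE2L6; IFITM2, which blocks viral entry, had 15.2, 11.4 and 10.6 FPKM in PATU-8902, against 38.98, 121 and 118 FPKM in PATU-8988T, but its sequence is close to that of IFITM3.

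The promoters of IFIT1 and IFIT3 show the repeat that gives this family its response element. Capitals mark GAAA, any 2 bases and GAAA again, or the complement on the other strand, at -116 and -103 in IFIT1 (chr10:89392373-89392672, plus strand) and at -156 and -122 in IFIT3 (chr10:89327747-89328046, plus strand), both from RefSeq on GRCh38.p14.
IFIT1: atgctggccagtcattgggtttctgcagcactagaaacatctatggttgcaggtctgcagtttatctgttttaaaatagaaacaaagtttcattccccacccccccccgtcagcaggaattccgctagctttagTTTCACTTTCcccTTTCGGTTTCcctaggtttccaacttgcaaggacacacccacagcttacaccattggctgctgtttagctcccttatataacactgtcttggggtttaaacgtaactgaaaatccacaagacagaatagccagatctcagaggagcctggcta
IFIT3: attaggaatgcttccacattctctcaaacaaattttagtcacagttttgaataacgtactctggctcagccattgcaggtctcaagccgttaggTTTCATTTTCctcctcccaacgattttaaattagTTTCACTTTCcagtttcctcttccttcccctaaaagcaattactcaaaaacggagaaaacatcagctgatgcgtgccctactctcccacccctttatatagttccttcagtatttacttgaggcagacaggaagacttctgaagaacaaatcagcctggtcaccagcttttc
Of 35 promoters found for the interferon list 20 (57.1%) held the motif on either strand, against 3.65% of all promoters and 2.57% of those of kept genes. HERC5, called lower, had 3 matches, as did IFIH1, called higher, while OAS1, XAF1 and IRF9, called higher, had 0. These matches describe letters and not binding, and whether they go with the line difference was not tested.

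Of 19 kept antigen presentation genes 8 were higher and 1 lower. CD74, the invariant chain of class II, had 101, 72.2 and 77.4 FPKM in PATU-8902, against 0.183, 0.436 and 0.155 FPKM in PATU-8988T. B2M, the light chain of class I, averaged 825 FPKM in PATU-8902 and 272 FPKM in PATU-8988T, and HLA-B 48.7 FPKM in PATU-8902 and 7.23 FPKM in PATU-8988T; HLA genes are alike in sequence, so reads may be shared among them. Among cytokines and chemokines 11 of 35 were kept, 8 higher and 2 lower. IL1A and IL1B, the interleukin-1 cytokines, had 131, 121 and 122 FPKM in PATU-8902, against 1.16, 1.73 and 1.62 FPKM in PATU-8988T for IL1A and 79.5, 69.4 and 64.98 FPKM in PATU-8902, against 0.0817, 0.0930 and 0.0916 FPKM in PATU-8988T for IL1B. IL18 averaged 119 FPKM in PATU-8902 and 1.16 FPKM in PATU-8988T. IL32 was lower, at 0.871, 0.532 and 0.509 FPKM in PATU-8902, against 12.6, 26.6 and 28.9 FPKM in PATU-8988T.

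Among metabolic genes, the first enzymes of serine synthesis were nearly absent from PATU-8902. PHGDH, its first enzyme, had 0.129, 0.172 and 0.124 FPKM in PATU-8902, against 26.9, 60.5 and 58.8 FPKM in PATU-8988T, beside the values of PSAT1 given above; both were under 0.5 FPKM in all 9 PATU-8902 libraries of the series. PSPH, the last enzyme, was expressed in both lines, at 34.1 FPKM in PATU-8902 and 18.9 FPKM in PATU-8988T, and called higher, but its call as deposited was lost without PATU-8902 replicate 1 (log2 difference as deposited 0.74) or without PATU-8988T replicate 1 (0.56), and also in a fit of the 6 DMSO libraries alone, against 0.87 with all libraries. The serine, one-carbon and ATF4 list had 10 lower and 5 higher of 23 kept genes (median -1.13). ASNS, asparagine synthetase, averaged 45.99 FPKM in PATU-8902 and 159 FPKM in PATU-8988T. SLC7A5 and SLC3A2, which form a transporter of large neutral amino acids, were higher, with 1057, 701 and 750.2 FPKM in PATU-8902, against 46.5, 125 and 109 FPKM in PATU-8988T for SLC7A5. ATF4 itself was not called, at 195 FPKM in PATU-8902 and 138 FPKM in PATU-8988T.

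NRF2 targets were more often lower, with 9 lower and 3 higher of 21 kept (median -0.96). Over all 28 listed, kept or not, the median was -0.53, beside -0.49 over all genes. HMOX1, haem oxygenase 1, had 1.69, 0.685 and 0.631 FPKM in PATU-8902, against 25.3, 68.1 and 57.7 FPKM in PATU-8988T. AKR1B1 is on this list also, and CBR1, a carbonyl reductase, averaged 0.191 FPKM in PATU-8902 and 19.97 FPKM in PATU-8988T. ALDH3A1, an aldehyde dehydrogenase, went the other way, at 57.5, 34.8 and 40.3 FPKM in PATU-8902, against 0.0791, 0.0918 and 0.0912 FPKM in PATU-8988T. NFE2L2, which encodes NRF2, was not called, at 64.00 FPKM in PATU-8902 and 52.5 FPKM in PATU-8988T. Of 4 kept metallothioneins, the metal-binding proteins, 2 were lower and 0 higher. MT1E averaged 101 FPKM in PATU-8902 and 579 FPKM in PATU-8988T, and copies of this family are nearly identical. Among drug-metabolising enzymes and transporters 7 were higher and 6 lower of 19 kept. CDA, which inactivates gemcitabine, had 106, 82.8 and 78.7 FPKM in PATU-8902, against 0.715, 2.09 and 1.12 FPKM in PATU-8988T, while DCK, which activates it, was not called at 29.3 FPKM in PATU-8902 and 18.9 FPKM in PATU-8988T. GSTM1, a glutathione transferase with close paralogs that could share its reads, averaged 0.128 FPKM in PATU-8902 and 24.1 FPKM in PATU-8988T.

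Glycolysis and lactate genes were mixed, with 11 higher and 6 lower of 25 kept. SLC16A3, the lactate exporter MCT4, had 104, 64.99 and 80.4 FPKM in PATU-8902, against 0.182, 0.495 and 0.875 FPKM in PATU-8988T. SLC2A1, the glucose transporter GLUT1, averaged 158 FPKM in PATU-8902 and 42.5 FPKM in PATU-8988T, and GPI, glucose-6-phosphate isomerase, encoded on chromosome 19, was lower at 59.4 FPKM in PATU-8902 and 166 FPKM in PATU-8988T. Hypoxia-response genes were also mixed, 7 higher and 4 lower of 13. EPAS1, which encodes HIF-2alpha, had 92.9, 78.3 and 76.5 FPKM in PATU-8902, against 0.910, 1.62 and 1.26 FPKM in PATU-8988T, and ADM, adrenomedullin, had 7.81, 6.01 and 6.32 FPKM in PATU-8902, against 73.7, 189.8 and 149 FPKM in PATU-8988T.

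Of 18 kept fatty acid genes 6 (33.3%) were higher and 6 (33.3%) lower, against 34.2% and 12.4% of all kept genes. FADS1, the delta-5 desaturase, had 0.219, 0.166 and 0.169 FPKM in PATU-8902, against 48.03, 106 and 89.4 FPKM in PATU-8988T. ACSL5, an acyl-CoA synthetase, had 142, 124 and 118 FPKM in PATU-8902, against 0.108, 0.130 and 0.207 FPKM in PATU-8988T. All 28 cholesterol genes were kept, with 6 higher and 4 lower. HMGCS1, which makes the HMG-CoA of the mevalonate pathway, averaged 29.01 FPKM in PATU-8902 and 15.6 FPKM in PATU-8988T, and FDFT1, squalene synthase, had 219.8, 157 and 153 FPKM in PATU-8902, against 47.8, 113 and 94.9 FPKM in PATU-8988T; both were called higher.

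HOX genes, which hold positional identity, differed by cluster. Of 39 listed 12 were kept, 10 higher and 2 lower. HOXB7 had 67.5, 62.00 and 61.99 FPKM in PATU-8902, against 7.56, 16.6 and 14.3 FPKM in PATU-8988T, and HOXB6 averaged 37.97 FPKM in PATU-8902 and 2.98 FPKM in PATU-8988T. The lower ones were HOXC6 and HOXC9, with HOXC9 at 0.138 FPKM in PATU-8902 and 2.97 FPKM in PATU-8988T. Of 9 kept imprinted genes 6 were higher and 3 lower, with PEG10 at 69.1 FPKM in PATU-8902 and 9.48 FPKM in PATU-8988T and GRB10, an adaptor of insulin receptors, at 0.136 FPKM in PATU-8902 and 6.10 FPKM in PATU-8988T. Of 13 kept long non-coding RNAs 6 were higher and 1 lower, UCA1 and MIR31HG (mean 35.1 FPKM in PATU-8902 and 0.419 FPKM in PATU-8988T) among the higher. Of 32 cancer-testis genes 2 were kept, MAGED1 and MAGED2, which many tissues express, and both were lower.

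Genes of the cell cycle, the ribosome and respiration were counted in the same way. Of 29 kept G1/S genes 8 were higher and 0 lower, and of 28 G2/M genes 12 and 0, with medians of 0.01 and 0.14, beside -0.05 over all kept genes. As deposited these medians were 0.51 and 0.64, beside 0.45. MKI67, the proliferation marker, was not called, at 121 FPKM in PATU-8902 and 106 FPKM in PATU-8988T. Of 33 ribosomal protein genes 0 were higher and 2 lower, RPLP2 and RPS15. The list median was -0.49 with the common median and 0.01 as deposited. Of 33 nuclear genes for oxidative phosphorylation 6 were higher and 5 lower, with a list median of -0.25, against 0.25 as deposited. NDUFA9, a complex I subunit encoded in the stretch on chromosome 12, had 495, 368 and 368 FPKM in PATU-8902, against 25.4, 47.9 and 47.6 FPKM in PATU-8988T.

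**Figure D4:**
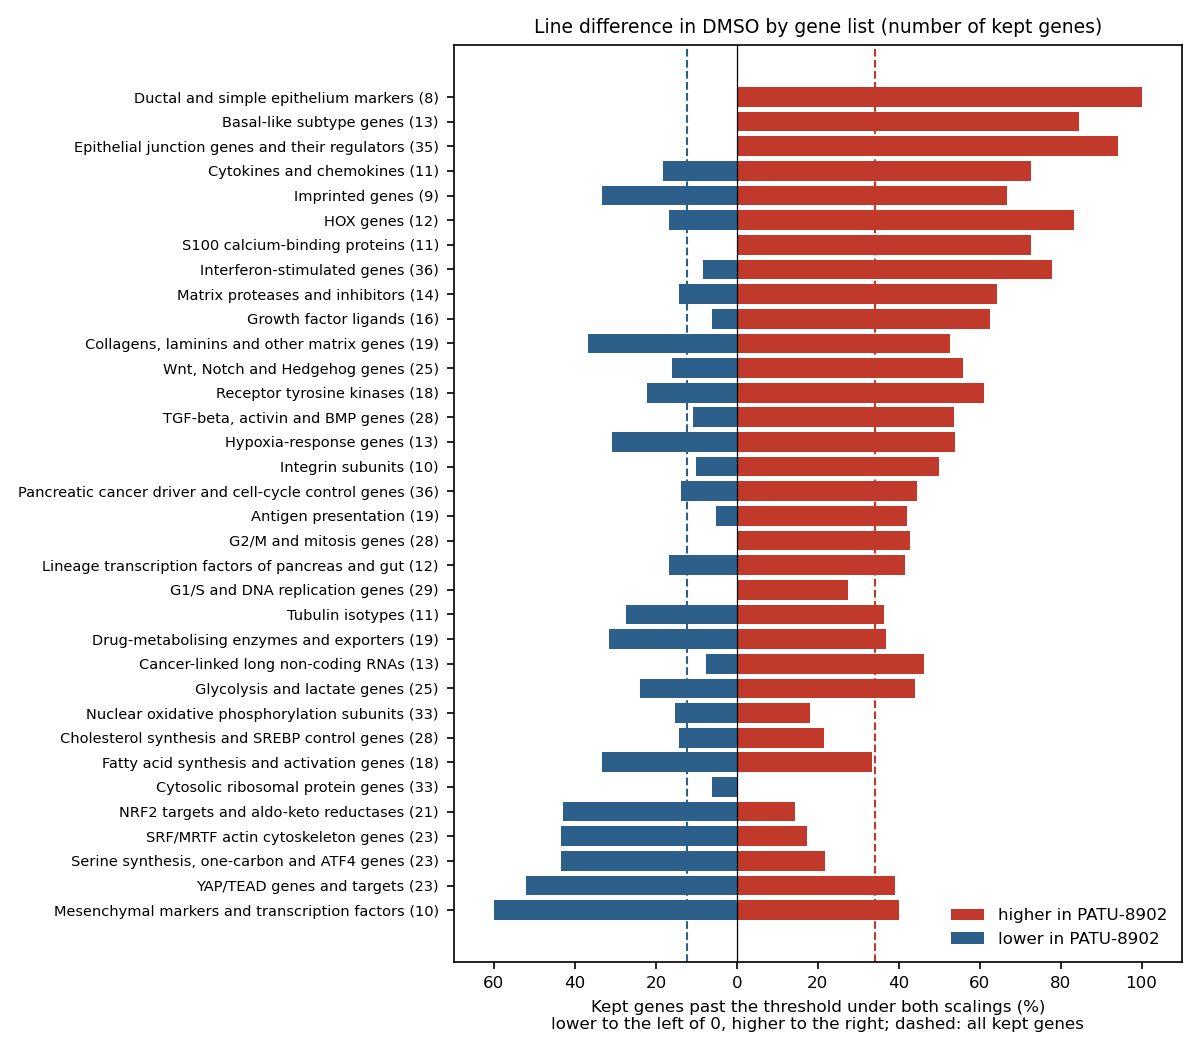
Percent of kept genes in each list shown (number kept in brackets; lists with at least 8) called higher (red, right) or lower (blue, left) in PATU-8902 in DMSO on both scales, ordered by the median difference. Dashed lines give 34.2% and 12.4%, the shares of all kept genes.

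The same contrast was made between the lines within the inhibitor libraries, in the same fit of 18 libraries. After 6 h of DCLK1-IN-1 8007 genes passed with the common median (69.8%), and 7078 had passed in DMSO with the same sign, which is 85.4% of the DMSO calls and 88.4% of those at 6 h. After 24 h 8218 passed (71.6%), and 7440 were shared, 89.8% and 90.5% of the 2 sets. Calls of opposite sign numbered 1 at 6 h and 13 at 24 h. Across kept genes the difference at 6 h correlated with that in DMSO at 0.948 and that at 24 h at 0.945, as a description over genes of the same lines. EMP1 differed by 9.90 at 6 h and 9.58 at 24 h, VIM by -5.39 and -5.43, and CTGF by -5.72 and -5.51.

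The size of the line difference changed at 24 h for few genes. No gene had a line difference at 6 h that differed from that in DMSO by limma's interaction test with the common median (0 of 11477), though 1385 were at an unadjusted p below 0.05, and without PATU-8988T replicate 1 2308 passed. At 24 h 26 genes (0.227%) passed, 25 with a higher and 1 with a lower value at 24 h, and without that library 636 passed. As deposited 1 passed at 24 h (0.00871%). SQLE, squalene epoxidase, had a line difference of 0.94 at 24 h, against -0.41 in DMSO, and the cholesterol enzymes HMGCS1 and DHCR7 moved in the same direction.

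**Figure D5:**
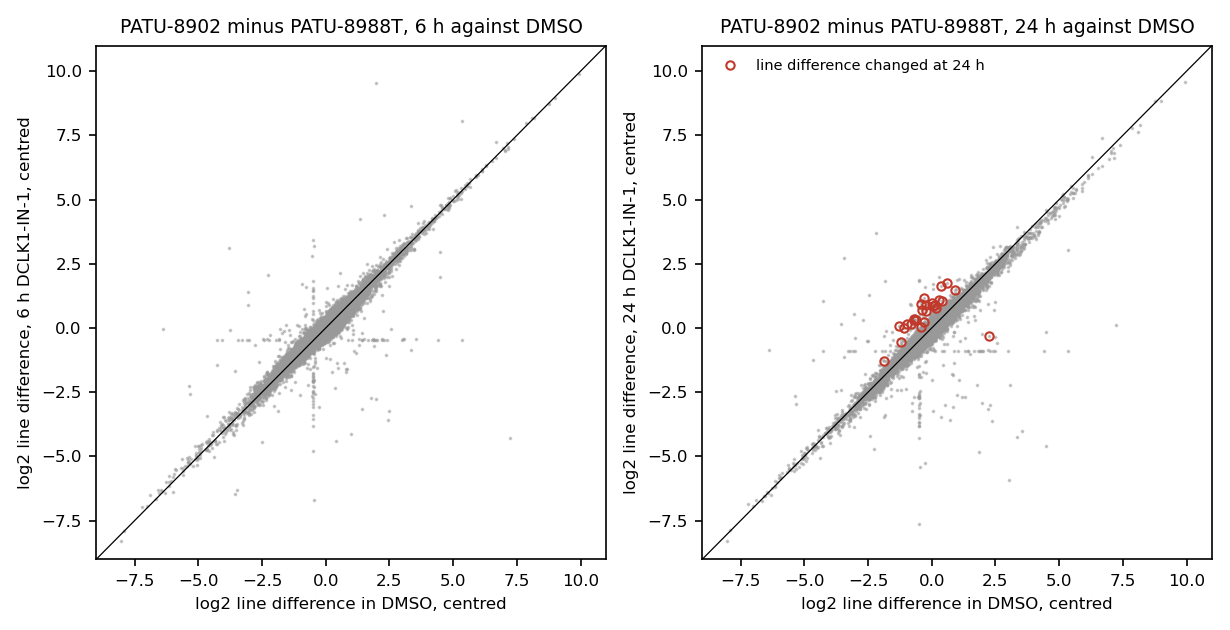
Log2 line difference (PATU-8902 minus PATU-8988T, common median) of each kept gene after 6 h (left) and 24 h (right) of 2.5 µM DCLK1-IN-1, plotted against the line difference in DMSO; the line marks equal values. Most genes lie along the line (correlations of 0.948 and 0.945), the 26 genes whose line difference changed at 24 h are circled, and small RNAs are among the points far from it.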

How the data were processed

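Polyadenylated RNA of 18 cultures was sequenced on Illumina, per the labels' protocols. The authors deposited 1 table of FPKM values per gene and library; per the submitters' processing notes it was made with HISAT, Cufflinks and Cuffnorm on hg19, with no versions given, and per the series record it was normalised to the ERCC spike-ins. No read counts were used here, so depth is unknown and no counting intervals can be had. No source used here says whether reads were assigned by strand, so overlapping and antisense genes cannot be separated.

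From these values 92 spike-in rows were removed, and log2(FPKM + 1) of kept genes was fitted by limma 3.58.1 in R 4.3.3 with a mean-variance trend over 6 groups of 3 libraries (12 residual degrees of freedom, 2-sided, Benjamini-Hochberg over 11477 genes, threshold 0.05). The procedure was tested on simulated data. The replicates are described as biological triplicates; replicate numbers did not pair across lines (correlations of -0.0993, -0.0145 and 0.0442).

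Named genes were the 15 with the largest log2 difference as deposited in each direction among genes passing on both scales with separated libraries, the 5 largest in each direction among genes of at least 10 FPKM in all 6 libraries, DCLK1, and members of 47 gene lists. Small RNAs, spike-ins, XIST and Y-linked genes were not ranked. Some genes that this rule named are not reported here. The members and lists were chosen with earlier results of these data known. The runs of neighbouring genes, the zinc finger count and the printed promoters were chosen after their values were seen. Chromosomes and promoters came from RefSeq GRCh38.p14. Alternatives were the pseudocount, the filter, other scalings, the replicate block, the 6 libraries alone and each library left out.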

Additional observations from a re-analysis of the deposited data

Results flagged for a closer look

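In 26 kept genes the line difference at 24 h of inhibitor differed from that in DMSO by limma's interaction test with the common median (adjusted p below 0.05; 3 libraries per group). The 17 of them that are listed genes reported here are given, and the 1 gene that went lower is not among these. Values are log2, line difference at 24 h minus line difference in DMSO, and these 17 are positive, that is, the PATU-8902 side was higher relative to PATU-8988T under the inhibitor than in DMSO. Among enzymes of the mevalonate pathway and the step before it, the value was 0.94 for ACAT2, 1.27 for HMGCS1, 1.09 for MVK and 1.04 for IDI1. Of squalene and sterol enzymes, it was 1.14 for FDFT1, 1.35 for SQLE, 1.10 for LSS, 1.10 for CYP51A1, 0.81 for NSDHL, 1.47 for HSD17B7 and 1.38 for DHCR7. Of the sterol regulators, it was 0.94 for INSIG1 and 0.97 for SREBF2. Of acetate and fatty acid enzymes, it was 1.01 for ACSS2, 0.88 for ELOVL6 and 0.57 for SCD. CNN3, calponin 3 of the actin cytoskeleton, had 0.61. In DMSO HMGCS1, FDFT1, SCD and NSDHL were called higher in PATU-8902, and CNN3 and DHCR7 were called lower. The DHCR7 call as deposited was lost without PATU-8902 replicate 2 or 3 (log2 differences of -0.65 and -0.72) and without PATU-8988T replicate 2 or 3 (-0.54 and -0.61), against -0.79 with all libraries; it was also lost with no filter, in a fit of the 6 DMSO libraries alone and with spike-in rescaling (-0.79, -0.79 and -0.78). The same DMSO libraries enter both sides of this contrast, and as deposited 1 gene of all those kept passed it.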

How the results depend on the processing

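The count of genes that differed between the lines in DMSO stayed within 1.5 times its value in every alternative, from 4216 (filter of 5 FPKM) to 8610 (cyclic loess) as deposited and from 6229 to 9130 with the common median. Leaving out 1 library gave 5304 to 6760 and 7799 to 8661. The count lower on both scales went to 2157 without PATU-8988T replicate 1, against 1424. The replicate numbers did not pair the libraries, and with the replicate block 6656 genes passed as deposited and 8287 with the common median; at 24 h the interaction count was 25. Interaction counts were the least stable. At 6 h there were 2 with a pseudocount of 0.1 FPKM, 1 with a filter of 5 FPKM, and 0 to 2308 with a library left out, the highest without PATU-8988T replicate 1. At 24 h there was 1 as deposited, and 21 to 636 with a library left out, the highest without the same library. Genes on in 1 line and off in the other numbered 184 in PATU-8902 and 117 in PATU-8988T with limits of 5 and 0.5 FPKM. Of 61 medians of lists and chromosomes 23 changed sign between the scales. With all members of a list in place of the kept ones, 19 of 38 list medians as deposited moved by more than their spread between replicates. Of the 38, 3 changed sign.

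Of the genes named, 6 were of opposite sign under some alternative to their log2 difference as deposited, and none of these was called. With cyclic loess and with the common median DSP stood at -0.18 and -0.15, MKI67 at -0.16 and -0.17, NFE2L2 at -0.20 and -0.17, OCLN at -0.28 and -0.34 and SQLE at -0.41 and -0.41. With 1 library left out the range was -0.0095 to 0.61 for DSP, -0.12 to 0.68 for MKI67, -0.15 to 0.37 for OCLN, -0.20 to 0.30 for SQLE and -0.37 to 0.24 for EGFR, lowest without PATU-8988T replicate 1 in each. The cause was not tested. Depth is unknown, so values under 0.5 FPKM say that a gene was near the floor of the table, not that it is absent.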

Other observations

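By chromosome, the median log2 difference of kept genes (PATU-8902 minus PATU-8988T, common median) was highest on chromosome 15, at 0.40 over 367 genes, of which 209 were called higher and 21 lower, followed by chromosome 12 at 0.32 over 626 genes, chromosome 13 at 0.25 over 216 and chromosome 17 at 0.24 over 668. It was lowest on chromosome 19, at -0.45 over 763 genes, of which 128 were called higher and 172 lower. Next was chromosome 20, at -0.34 over 322 genes, of which 74 were called higher and 43 lower. As deposited the medians of these 2 chromosomes were 0.05 and 0.16, so their sign depends on the scale. Chromosome 3 had 160 genes called lower of 661, beside 184 higher. These are values of 2 lines with no test of a chromosome.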
